A study of Mus musculus with 4 samples.

Results

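The neurotrophins, the ligands of the GDNF family and their receptors are described here in the epidermis of 2 transgenic mouse lines. The list named 9 genes. Those with a probe set that the platform table assigns to exactly 1 gene symbol were kept, and 8 of the 9 were found, each with 1 probe set, among 19938 such genes. They are the neurotrophins Bdnf and Ntf5, the GDNF family ligands Gdnf, Nrtn and Artn, and the neurotrophin receptors Ngfr, Ntrk2 and Ntrk3. The neurotrophin Ntf3 was not analysed here.

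Mice carried a transgene for noggin or for BMP4 driven by the K14 promoter, which is active in basal keratinocytes. BMP4 is a secreted bone morphogenetic protein, and noggin binds and blocks such proteins outside the cell. Strips of epidermis were laser-captured from sections of hairless hindpaw skin, 8 to 10 from each of 6 animals per line, and each array received the pooled RNA of 3 animals, which gave 2 noggin and 2 BMP4 arrays. All animals were transgenic and non-transgenic skin was not analysed here, and the sources used here do not give strain, age or sex. Every difference is therefore between the lines and is given in log2 units, as noggin minus BMP4.

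Neurotrophins are growth factors that tissues release to sustain and guide the nerve cells that supply them. BDNF and NT-4, the product of Ntf5, signal through the receptor tyrosine kinase TrkB, encoded by Ntrk2, and NT-3 signals mainly through TrkC, encoded by Ntrk3. All neurotrophins also bind the shared low-affinity receptor p75, encoded by Ngfr. GDNF, neurturin and artemin, encoded by Gdnf, Nrtn and Artn, bind a GFRα co-receptor and signal through the kinase RET. Keratinocytes are among the skin cells known to make such factors, and sensory axons that end in the epidermis and Merkel cells carry the receptors.

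The median log2 values of the arrays lay between 6.04 and 6.06, after processing that equalizes the arrays, so this is no check of them. Across all named genes the arrays correlated with r between 0.985 and 0.993, which is across genes and not across independent samples. BMP4 replicate 1 stood apart, with 43 genes more than 1 log2 unit above the 3 other arrays and 44 genes more than 1 below them. The keratinocyte genes Krt14, Krt5, Krt10 and Krt1 had log2 values from 12.25 to 13.36 on all arrays, and all 13 measured keratinocyte markers were bright. Nog was at 5.95 in noggin and 6.09 in BMP4 arrays, and Bmp4 at 7.81 and 8.13 (means of 2 arrays). The sources used here do not say whether these probe sets cover the transgenes, so they do not check the labels.

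None of the 8 genes passed the test between noggin and BMP4 epidermis, and none differed by more than 1.14-fold. At an adjusted p below 0.05 limma called 0 of the 8, where 0% of all 35556 probe sets were called. At an unadjusted p below 0.05 it also gave 0 of the 8, against 4.28% of all named genes and 5.61% of all probe sets. On average 4 of the 8 genes were higher in noggin and 4 lower, and 47.8% of all named genes were higher. The median difference was -0.0028 over the 8 genes and -0.0064 over all named genes, and the median size of the difference, without its sign, was 0.065 against 0.087. Adjusted p of the 8 genes lay between 0.939 and 0.996 (limma). With 2 arrays against 2, the smallest two-sided p that an exact permutation test of a single gene can give is 0.333. In such captured tissue, fewer cells of a type and less RNA per cell cannot be told apart.

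**Figure D1:**
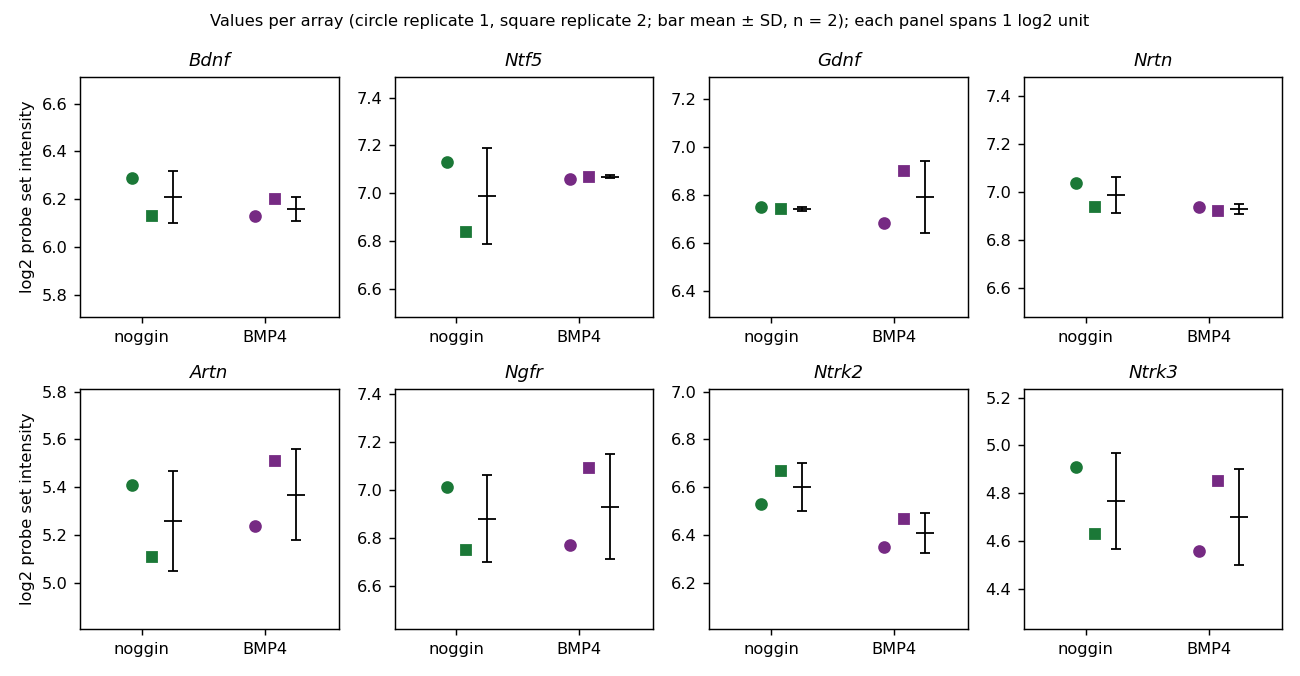
Log2 probe set intensity of the 8 genes on each array, with noggin arrays in green and BMP4 arrays in purple, and the mean ± SD of 2 arrays beside them. Each panel spans 1 log2 unit, and Ntrk2 is the only gene in which both noggin arrays lie above both BMP4 arrays.

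Bdnf encodes brain-derived neurotrophic factor, a TrkB ligand. Its log2 value was 6.29 and 6.13 in noggin replicates 1 and 2, and 6.13 and 6.20 in BMP4 replicates 1 and 2. Noggin replicate 1 was the highest array and the groups overlapped. The means were 6.21 ± 0.11 (SD, n = 2) and 6.16 ± 0.052 (SD, n = 2), a difference of 0.046 (95% interval -0.24 to 0.33; limma, adjusted p = 0.991).

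Ntf5 encodes NT-4, the other TrkB ligand measured. It was at 7.13 and 6.84 in the noggin arrays and at 7.06 and 7.07 in the BMP4 arrays. The noggin arrays lay on both sides of the BMP4 arrays, which were nearly equal. The difference was -0.080 (95% interval -0.44 to 0.28; limma, adjusted p = 0.987).

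Gdnf, the first of the GDNF family ligands, is known for sustaining motor neurons and a set of unmyelinated sensory neurons. Its values were 6.75 and 6.74 in noggin and 6.68 and 6.90 in BMP4. Here the noggin arrays were nearly equal and the BMP4 arrays lay on both sides of them. The difference was -0.052 (95% interval -0.37 to 0.26; limma, adjusted p = 0.991).

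Nrtn encodes neurturin, which binds mainly GFRα2. It had the narrowest spread of the 8 genes, at 7.04 and 6.94 in noggin and 6.94 and 6.92 in BMP4, a pooled SD within groups of 0.055. Noggin replicate 1 was highest, and the other 3 arrays were close together. The difference was 0.061 (95% interval -0.19 to 0.32; limma, adjusted p = 0.984).

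Artn encodes artemin, the ligand of GFRα3, a co-receptor found on peptidergic pain-sensing neurons. It was at 5.41 and 5.11 in noggin and at 5.24 and 5.51 in BMP4. The highest array was a BMP4 array and the lowest a noggin array, with a gap of 0.30 between the noggin replicates and 0.27 between the BMP4 replicates. Both gaps were wider than the difference of -0.11 between the groups, whose 95% interval ran from -0.56 to 0.34 (limma, adjusted p = 0.984).

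Among the receptors, Ngfr, the p75 receptor, was at 7.01 and 6.75 in noggin and at 6.77 and 7.09 in BMP4. Each group held a high and a low array, 0.26 apart in noggin and 0.31 apart in BMP4. The means of 6.88 ± 0.18 (SD, n = 2) and 6.93 ± 0.22 (SD, n = 2) differed by -0.054 (95% interval -0.51 to 0.40; limma, adjusted p = 0.996).

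Ntrk2, the TrkB receptor, was at 6.53 and 6.67 in the noggin arrays and at 6.35 and 6.47 in the BMP4 arrays. Both noggin arrays were above both BMP4 arrays, by a narrow margin, and this held for 1 of the 8 genes and for 15.7% of all named genes. The groups were apart in either direction in 33.6% of all named genes. The means were 6.60 ± 0.10 (SD, n = 2) and 6.41 ± 0.084 (SD, n = 2). The difference of 0.19, or 1.14-fold, had a 95% interval from -0.10 to 0.48 and an unadjusted p of 0.149 (limma, adjusted p = 0.939). It exceeded 79.8% of all named genes in size. TrkB exists in a form with the kinase and in truncated forms without it, and a single probe set annotated with several Ntrk2 transcripts does not tell them apart.

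The upstream region of Ntrk2 is shown because Ntrk2 was the only gene of the 8 whose groups did not overlap. It covers the 153 bases chr13:58806319-58806471 of GRCm38.p6 on the plus strand, from RefSeq, and ends just before the first base of the gene in the RefSeq gene table. The RefSeq promoter window it was taken from is set on a start 97 bases further on, and the bases from the first base of the gene onward were left out. The capitals mark GTCT, the core letters bound by SMAD proteins, which carry BMP signals to the nucleus.
Ntrk2: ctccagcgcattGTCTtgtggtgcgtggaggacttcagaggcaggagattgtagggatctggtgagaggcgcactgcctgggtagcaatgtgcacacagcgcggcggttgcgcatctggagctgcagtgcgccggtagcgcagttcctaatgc
The stretch held GTCT or its reverse complement AGAC 1 time, 141 bases before the first base of the gene, and 68.5% of all promoter windows held either in a stretch of this length. The GC-rich letters GGCGCC, which are their own reverse complement and are bound by BMP-activated SMADs, were found 0 times in it. In the 250 bases before each start, GGCGCC occurred in 1 of the 13 windows that RefSeq gives for 6 of the 8 genes, a window of Bdnf, and in 9.59% of all 32851 windows. GTCT or AGAC occurred in 11 of the 13 windows and in 82.9% of all windows. These counts describe letters and were not set against the expression values.

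The genes most like Ntrk2 over the 4 arrays, after the mean of each gene was taken off, were Rbpj, Pcgf5 and Lmbrd1. Their root mean square distances from Ntrk2 were 0.0085, 0.0098 and 0.011 log2 units. Rbpj, the DNA-binding factor of the Notch pathway, was at 8.72 and 8.88 in noggin and at 8.56 and 8.68 in BMP4. As many as 294 genes lay within 0.05 log2 units of Ntrk2.

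Ntrk3, the TrkC receptor, was at 4.91 and 4.63 in noggin and at 4.56 and 4.85 in BMP4. As in Ngfr, each group had a high and a low array, with gaps of 0.28 and 0.29. The difference was 0.070 (95% interval -0.38 to 0.52; limma, adjusted p = 0.991).

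**Figure D2:**
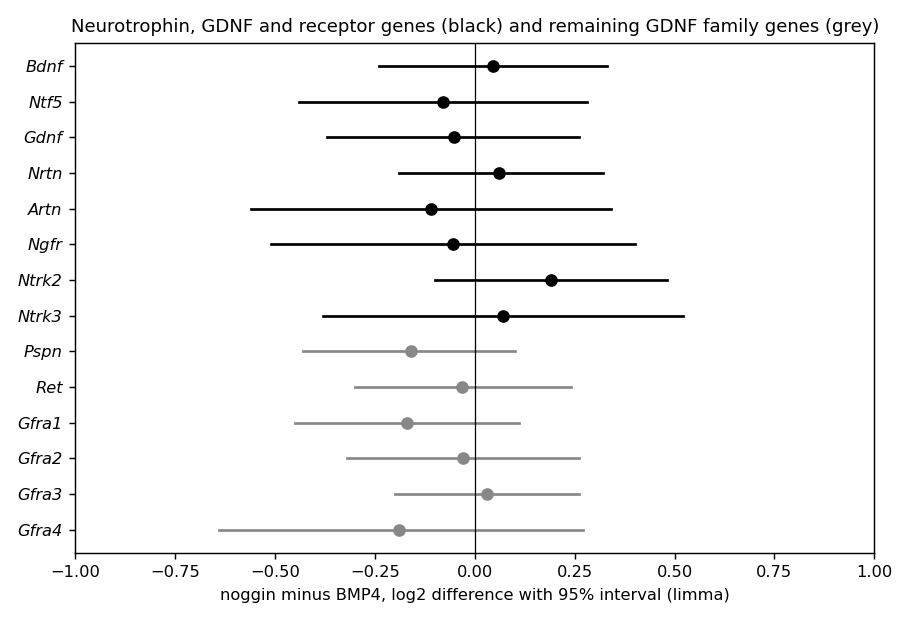
Difference between noggin and BMP4 (log2, x axis) with its 95% interval from limma for the 8 genes in black and 6 further genes of the GDNF family in grey. All 8 black intervals contain 0 and lie between -0.56 and 0.52.

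The intervals set a limit on the change that these arrays leave room for. All 8 contained 0, and the bound farthest from 0, that of Artn, came to 1.48-fold. Each interval is for 1 gene and was not widened for the number of genes, and it applies to the deposited values, in which changes of dim probe sets are compressed. For 7 of the 8 genes the wider of the replicate gaps exceeded the difference between the groups, as it did in 78.1% of all named genes, with Ntrk2 as the exception. The pooled SD within groups was 0.13 at the median of the 8 genes and 0.11 at the median of all named genes.

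**Figure D3:**
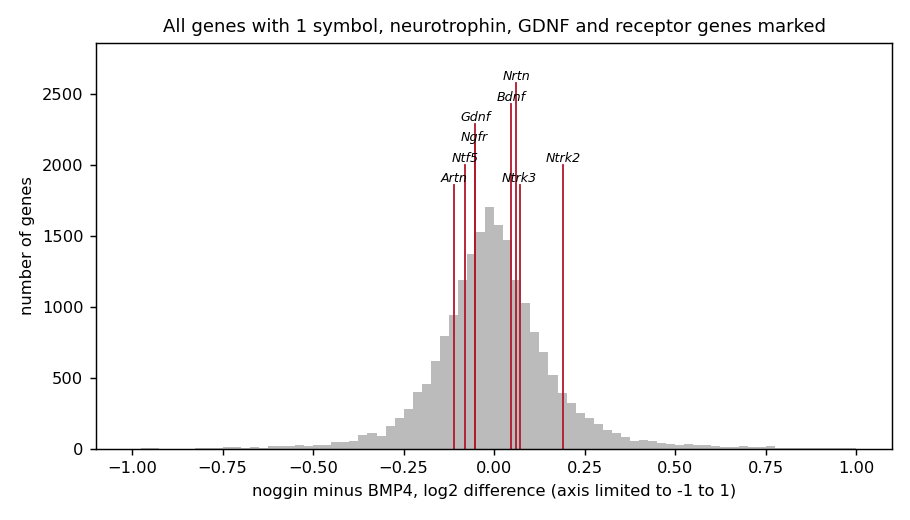
Histogram of the log2 difference between noggin and BMP4 over all named genes, with the x axis limited to -1 to 1 and the 8 genes marked by red lines. The lines lie between -0.11 (Artn) and 0.19 (Ntrk2), within the central part of the distribution.

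In 6 of the 8 genes, namely Bdnf, Ntf5, Gdnf, Artn, Ngfr and Ntrk3, noggin replicate 1 and BMP4 replicate 2 were the highest arrays, a pattern that crosses the groups and was noticed after the values were seen. Over all named genes this order held in 22.3%. Relative to the mean of each gene, the 8 genes had a median of 0.097 on noggin replicate 1 and of 0.077 on BMP4 replicate 2, against -0.079 in noggin replicate 2 and -0.082 in BMP4 replicate 1. Noggin replicate 1 and BMP4 replicate 2 were also the most alike over all named genes, by a narrow margin. Their r across genes was 0.9932, against 0.9925 for the 2 noggin arrays. The same signs were found in 4 of the 10 lists of cell type markers. They were found in 0 of the 5 lists of further pathway genes described below. In noggin replicates 1 and 2 and BMP4 replicates 1 and 2 the medians were 0.79, -0.13, -0.80 and 0.20 for skeletal muscle, the widest of the 4 lists, and 0.081, -0.020, -0.068 and 0.073 for endothelium and pericytes. For sensory neurons and axons they were 0.035, -0.077, -0.025 and 0.12, and for Merkel cells 0.10, -0.054, -0.018 and 1.0e-05. The genes of olfactory and vomeronasal receptors, which are not expected in skin, had these signs too, at 0.0079, -0.023, -0.0098 and 0.021, as did all named genes, at 0.011, -0.018, -0.0025 and 0.0090. The part of any of these in the pattern was not tested.

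The direction of 6 of the 8 differences depended on a single array. Without noggin replicate 1 the difference was -0.029 for Bdnf and -0.070 for Ntrk3, and without BMP4 replicate 1 it was -0.075 for Ntrk3. Without noggin replicate 2 it was 0.062 for Ntf5, 0.040 for Artn and 0.076 for Ngfr. Without BMP4 replicate 2 it was 0.058 for Gdnf, 0.025 for Artn and 0.10 for Ngfr. Only Ntrk2 and Nrtn kept their direction whichever array was left out, and for Ntrk2 this follows from its groups not overlapping. The differences of Ntrk2 ran from 0.12 (without noggin replicate 2) to 0.26 (without noggin replicate 1). Those of Nrtn ran from 0.0079 (without noggin replicate 1) to 0.11 (without noggin replicate 2).

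Detection calls were not used here, so brightness was set against the 1210 probe sets of olfactory and vomeronasal receptor genes. Brightness also depends on the sequence of the probes, and the genes are not ranked by it. The mean over 4 arrays lay above the 95th percentile of those probe sets, a log2 value of 5.62, for 6 of the 8 genes, and for 12955 of 19938 named genes. The exceptions were Artn, with 91.7% of the receptor probe sets below it, and Ntrk3, with 79.3% below it. At 4.74, Ntrk3 was also close to the lower quartile of the arrays, 4.71 to 4.72. For Artn and Ntrk3 a transcript level above that of such probe sets was therefore not shown.

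The list of the remaining ligand, receptors and co-receptors of the GDNF family, which includes Ncam1 and Sdc3, gave no call either. Of 9 genes measured, limma called 0 at an adjusted p below 0.05. An unadjusted p below 0.05 was found for 1 of them and for 4.28% of all named genes. On average 7 of the 9 genes were lower in noggin. Their median difference came to -0.13. Leaving out noggin replicate 2 gave 0.00021, and leaving out BMP4 replicate 2 gave -0.063. The kinase receptor Ret was at 5.36 and 5.23 in noggin and at 5.36 and 5.30 in BMP4. The co-receptor of GDNF, Gfra1, was at 6.25 and 6.09 in noggin and at 6.36 and 6.31 in BMP4, a difference of -0.17 (95% interval -0.45 to 0.11) that came to -0.091 when noggin replicate 2 was left out. Both its noggin arrays lay below both BMP4 arrays, as in 17.9% of all named genes.

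For the co-receptors of neurturin and artemin the differences were smaller, -0.030 for Gfra2 and 0.030 for Gfra3. That of Gfra2 turned to 0.050 when BMP4 replicate 2 was left out. The co-receptor Gfra4 differed by -0.19, and by 0.00021 when noggin replicate 2 was left out. Pspn, which encodes the ligand persephin, differed by -0.16. The smallest p of this list was that of Sdc3, which encodes the heparan sulphate proteoglycan syndecan-3. Sdc3 was at 6.28 and 6.18 in noggin and at 6.63 and 6.53 in BMP4, a difference of -0.35 (95% interval -0.62 to -0.087; limma, adjusted p = 0.847).

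The other neurotrophin receptors were the sorting receptors, which bind the uncleaved pro-forms, and relatives of p75. Of 6 genes measured 2 were higher and 4 lower in noggin on average, at a median of -0.037, with 0 calls and 0 at an unadjusted p below 0.05 (limma). The median ran from -0.071 without BMP4 replicate 1 to 0.00034 without noggin replicate 2. Sort1, which encodes the sortilin that pairs with p75, was at 8.43 and 8.43 in noggin and at 8.47 and 8.52 in BMP4. The 3 with the smallest p were Sorl1 at 0.18, Nradd at -0.13 and Sorcs2 at -0.080. Leaving out noggin replicate 2 brought Sorl1 to 0.068, and leaving out noggin replicate 1 brought Nradd to -0.011 and Sorcs2 to -0.0039.

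Adaptors and signalling partners of the receptors gave 0 calls among 21 genes and 0 at an unadjusted p below 0.05 (limma), with 6 higher and 15 lower in noggin. The median difference was -0.051, and it was 0.026 without BMP4 replicate 2, -0.00077 without noggin replicate 2 and -0.020 without noggin replicate 1. The smallest p belonged to the adaptor Shc2 at -0.26, to Kidins220, a membrane scaffold of Trk receptors, at -0.20, and to Grb2, an adaptor of many kinases, at 0.22. Shc2 was at -0.14 without BMP4 replicate 2, Kidins220 at -0.11 without noggin replicate 2 and Grb2 at 0.069 without BMP4 replicate 1.

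Enzymes and inhibitors that act on pro-neurotrophins gave 0 calls among 11 genes (limma). An unadjusted p below 0.05 (limma) was found for 1 of the 11 and for 4.28% of all named genes. On average 8 were higher in noggin, with a median difference of 0.17. That median was 0.065 without BMP4 replicate 1. The proprotein convertase Pcsk6 averaged 7.32 ± 0.071 (SD, n = 2) in the noggin arrays against 7.04 ± 0.066 (SD, n = 2), with no overlap of the groups, a difference of 0.28 (95% interval 0.013 to 0.55; limma, adjusted p = 0.874). Serpini1, which encodes neuroserpin, an inhibitor of tissue plasminogen activator, differed by 1.18, but it was at 8.64 and 8.87 in noggin and at 6.62 and 8.54 in BMP4. Leaving out BMP4 replicate 1 gave a difference of 0.22, and leaving out BMP4 replicate 2 gave 2.14. The protease gene Plat itself differed by 0.19, and by 0.083 without noggin replicate 1.

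Mmp3, a matrix metalloproteinase picked out after its values were seen, had the widest difference of the list, 1.44. It was at 5.50 in noggin replicate 1 and 2.51 log2 units higher in noggin replicate 2, and at 5.12 and 5.51 in BMP4. Noggin replicate 2 alone was high, and without that array the difference was 0.18, and leaving out noggin replicate 1 instead gave 2.69. Among 10 cytokines and receptors of the gp130 group, which includes further factors for nerve cells, 0 were called, 0 were at an unadjusted p below 0.05 (limma) and 8 were higher in noggin, with a median difference of 0.11. Leaving out noggin replicate 2 brought that median to 0.0069, and leaving out BMP4 replicate 2 to 0.039. The 3 with the smallest p were the shared receptor Il6st at 0.30, the receptor Lifr at 0.29 and the ligand Ctf1 at 0.14. Il6st came to 0.0070 when BMP4 replicate 1 was left out and to 0.60 when BMP4 replicate 2 was. Leaving out noggin replicate 2 turned Lifr to -0.026 and brought Ctf1 to 0.021, and leaving out noggin replicate 1 gave 0.61 and 0.25.

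**Figure D4:**
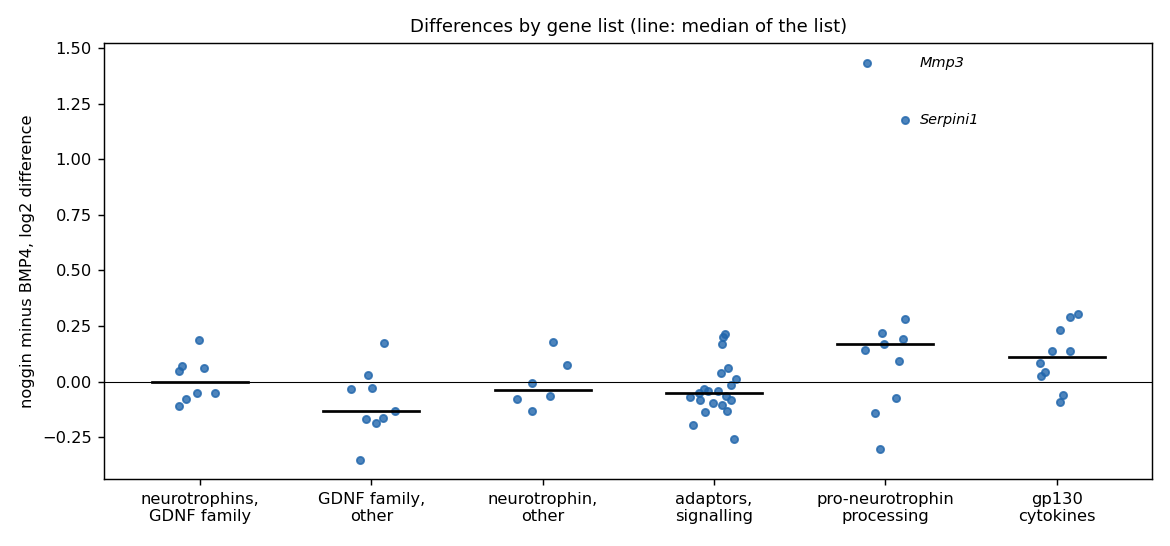
Log2 difference between noggin and BMP4 (y axis) for each gene of the 6 lists on the x axis, 1 point per gene, with the median of each list as a line. The 8 genes lie between -0.11 and 0.19, and Mmp3 at 1.44 and Serpini1 at 1.18 are the only points beyond 0.5.

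Captured strips can hold cells other than keratinocytes. For Schwann cells, sensory axons and Merkel cells, which carry or make several of these factors and receptors, the markers had medians close to 0. These are values of RNA in the strips, and nerve supply was not measured. The median difference was -0.018 over 10 Schwann cell and nerve markers, -0.014 over 12 sensory neuron and axon markers and -0.0031 over 12 Merkel cell markers. All 3 medians changed sign with the array left out, running from -0.10 without noggin replicate 1 to 0.052 without noggin replicate 2, from -0.11 without BMP4 replicate 1 to 0.058 without noggin replicate 2, and from -0.060 without noggin replicate 1 to 0.062 without noggin replicate 2. Above the 95th percentile of the receptor probe sets lay 8 of the 10, 5 of the 12 and 4 of the 12. Brightness varied within each list. Sox10 of Schwann cells and melanocytes was brighter than 99.1% of the receptor probe sets, but Cdh19 of the same list than 76.1%. In the Merkel cell list, Krt8 was brighter than 99.9% and Krt20 than 76.0%. In the axon list, Stmn2 and Gap43 were each brighter than 98.7%, but Scn10a of pain-sensing neurons than 68.4% and Tac1 than 40.9%.

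Tubb3, a tubulin of neurons that other cells can also express, had the smallest p of the axon list. It was at 9.89 and 9.37 in noggin and at 10.84 and 10.52 in BMP4, a difference of -1.05 (95% interval -1.68 to -0.41; limma, adjusted p = 0.765). Piezo2, a touch channel of Merkel cells and sensory endings, had the smallest p of the Merkel cell list, at 5.84 and 5.49 in noggin and at 5.33 and 5.29 in BMP4, a difference of 0.36 (95% interval -0.049 to 0.77; limma, adjusted p = 0.893). Without noggin replicate 1 the difference of Piezo2 was 0.19, and without noggin replicate 2 it was 0.54. In the Schwann cell and nerve list, with 4 genes higher in noggin and 6 lower, Egr2 and S100b had the smallest p. Egr2 was at 7.39 and 8.24 in noggin and at 7.29 and 7.54 in BMP4, a difference of 0.40. S100b was at 6.62 and 5.72 in noggin and at 5.81 and 5.83 in BMP4, a difference of 0.35. The groups overlapped in both genes.

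Larger median differences lay in cell types that are not defined by these factors. Skeletal muscle markers had a median difference of 0.63, with 15 of 16 higher in noggin, and Langerhans cell and macrophage markers 0.67, with 11 of 12 higher. Hair follicle markers had a median difference of -0.32, with 11 of 11 lower. In the Langerhans cell and macrophage list the gene of smallest p went against the median. H2-Eb1, which encodes a chain of MHC class II, was at 6.37 and 6.43 in noggin and at 7.31 and 7.38 in BMP4, a difference of -0.95 (limma, adjusted p = 0.601). Cd207, which encodes the Langerhans cell lectin langerin, differed by 0.58 (limma, adjusted p = 0.848). Of the hair follicle markers, S100a3 differed by -1.62 (limma, adjusted p = 0.451). The hair and nail keratin gene Krt84 was at 5.47 and 5.71 in noggin and at 11.60 and 9.09 in BMP4, a difference of -4.75, or 27.0-fold (limma, adjusted p = 0.736). The noggin and BMP4 arrays did not overlap in any of these 4 genes, which were picked by their p. The groups were apart in 33.6% of all named genes. Where groups do not overlap, leaving out 1 array cannot change the sign, so that is no further check of these genes.

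Without BMP4 replicate 1 the muscle, Langerhans cell and hair follicle medians were 0.14, 0.30 and -0.25, and the muscle median ran from 0.20 to 1.11 on leaving out noggin replicate 1 or 2. Without BMP4 replicate 2 they were 1.11, 1.10 and -0.56. Their part in the values of the 8 genes was not tested. The keratinocyte, melanocyte, dermal fibroblast and endothelium and pericyte lists had median differences of -0.032, 0.042, 0.047 and 0.011. The last 3 changed sign with the array left out, to -0.028 and -0.13 without BMP4 replicate 1 for melanocytes and fibroblasts and to -0.042 without noggin replicate 1 for endothelium and pericytes. Over all lists of cell type markers limma called 0 of 118 genes at an adjusted p below 0.05. It gave 6 of the 118 at an unadjusted p below 0.05, against 4.28% of all named genes.

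**Figure D5:**
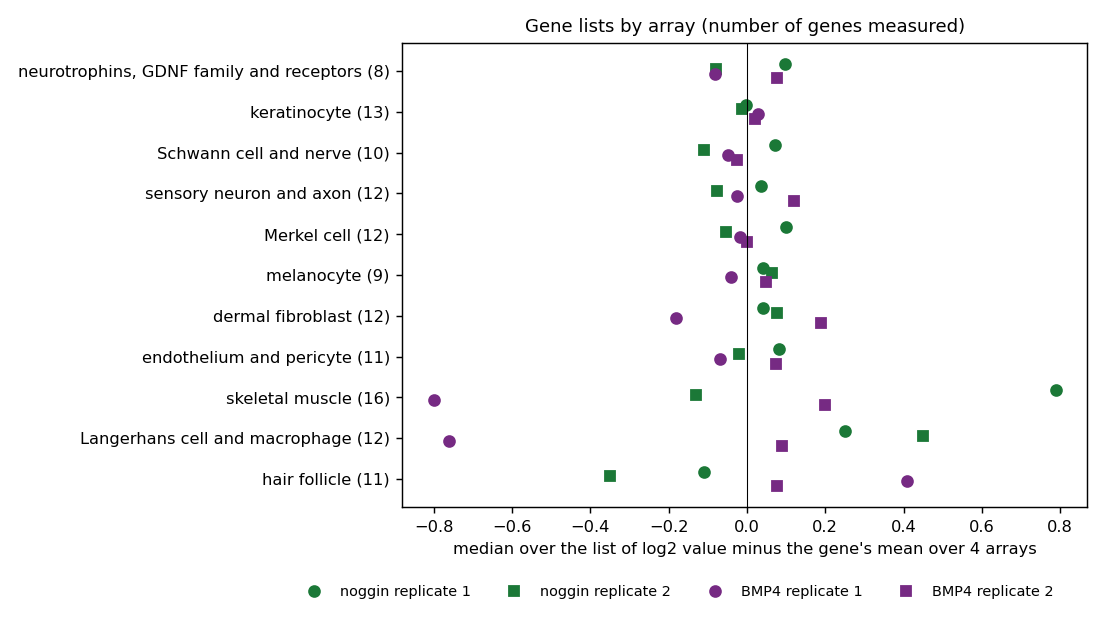
Median, over each list, of the log2 value minus the mean of that gene over 4 arrays (x axis), by array, with circles for replicate 1 and squares for replicate 2, noggin in green and BMP4 in purple. The 8 genes stay between -0.082 and 0.097, while skeletal muscle markers run from -0.80 to 0.79.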

How the data were processed

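The authors deposited log2 probe set intensities for 4 arrays. The submitters' processing notes name RMA in Affymetrix Expression Console, with no version given, and per the labels' protocols RNA was amplified and biotin-labelled before hybridisation. RMA equalizes the arrays and compresses changes of dim probe sets. The number of arrays limits the precision. The p-values rest on the spread between arrays of pooled RNA, which limma combines with the spread over all probe sets.

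All 35556 probe sets were fitted with limma 3.58.1 in R 4.3.3 (a two-sided test of group with no other term, on 2 residual and 2.085 prior degrees of freedom), with Benjamini-Hochberg adjustment over all probe sets and a threshold of 0.05. Where several of the 21789 probe sets with 1 symbol named a gene, that of the highest mean over the arrays was taken. The code was checked on simulated data. The 8 genes and all lists were chosen with earlier results of these data known. Beside the 8 genes, the text names the 3 genes of smallest p of each pathway list, up to 2 of each marker list, Ret and its co-receptors, the keratin checks and the nearest genes to Ntrk2. A few more were named after their values were seen: Sort1, Mmp3 and the nerve and Merkel cell markers given with their brightness. Plots came from matplotlib 3.10.9 under Python 3.11.15.

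The replicate numbers are not said to pair the arrays, so the main fit did not pair them. With group means taken off, same-numbered arrays correlated at -0.12, which cannot settle whether they shared a batch. The alternatives tried were a block for the replicate number, other eBayes priors, dropping dim probe sets, other scalings, averaging the probe sets of each gene, a threshold of 0.1 and leaving out each array.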

Additional observations from a re-analysis of the deposited data

How the results depend on the processing

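The count of the 8 genes called was 0 in each of the 13 alternatives, as were the counts over all probe sets, the pathway lists and the marker lists where these were recomputed, with a smallest adjusted p of 0.785 for any of the 8 genes (limma). With the replicate number as a block, limma also called 0 of the 8, and the difference of Ntrk2 was 0.19 with an unadjusted p of 0.169. At an unadjusted p below 0.05 the block fit gave 0 of the 8 and 1736 of all probe sets, against 0 and 1994 without the block.

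With 2 arrays a group and 1 probe set per gene, the block, priors, dim filter and probe set averaging cannot change the differences of the 8 genes. Other scalings could, and reversed 0 of the 8 differences. Leaving out 1 array reversed 6 of them. The differences then ranged from -0.029 to 0.12 for Bdnf, -0.22 to 0.062 for Ntf5, -0.16 to 0.058 for Gdnf, -0.26 to 0.040 for Artn, -0.21 to 0.10 for Ngfr and -0.075 to 0.21 for Ntrk3. The lone array of a group was then assumed to vary like the pair of the other group. Low signal over background limits what Artn and Ntrk3 can show.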
